A study of Mus musculus with 6 samples.

Results

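The genes described here are the transcription factor Atf4, its known targets, and the enzymes and transporters of serine synthesis, folate one-carbon metabolism and amino acid supply around it. They were taken by symbol from the deposited count table. All 34 listed symbols were found among the 54532 genes of the table, of which 24135 had counts in at least 1 library. Ddit3 had a second row with no counts, and the row with the higher total was used.

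The data were messenger RNA sequencing counts from DC2.4, an immature mouse dendritic cell line. Cells labelled as overexpressing Vdbp (vector pTT5, 3 samples) were set against cells with the empty pTT5 vector (3 samples). Cells of both groups were transfected, passaged at 48 h and then kept in selective medium, per the labels. The labels do not say whether the samples of a group came from separate transfections, so each p-value covers the variation among these 6 samples alone, which may be technical.

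ATF4 is the transcription factor of the integrated stress response. When amino acids run short or unfolded proteins build up, kinases phosphorylate the initiation factor eIF2, translation in general slows and the Atf4 message is translated more. ATF4 then switches on genes that import amino acids, make serine, asparagine and proline, and feed one-carbon units into folate. Much of this control acts on translation of Atf4, which RNA counts do not measure.

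Library totals lay between 15563800 and 16710975 counts. Gc, the mouse gene for Vdbp, had 0 counts in all 6 libraries, which allows up to 0.192 CPM (counts scaled to library size) in the Vdbp libraries and 0.184 CPM in the empty-vector libraries at a limit of 3 counts, counting error only. The groups are therefore called by their labels. Of 13 dendritic cell markers, 4 (Itgax, Cd74, Irf8 and Sirpa) were above 1 FPKM, while Flt3, Zbtb46 and the class II genes H2-Aa and H2-Ab1 stayed below it. Of 8 macrophage markers, 7 were above 1 FPKM and Mertk was not. Dendritic markers summed to 267 to 313 FPKM in Vdbp libraries and 250 to 271 FPKM in empty-vector libraries. Macrophage markers summed to 2900 to 3130 FPKM in Vdbp libraries and 3080 to 3590 FPKM in empty-vector libraries, and the part of these shifts in the results was not tested. No T cell, B cell, fibroblast, epithelial or endothelial marker reached 1 FPKM. In bulk RNA, fewer cells of a type and less RNA per cell cannot be told apart.

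Binding of ATF4 with C/EBP partners is known to use a composite element whose core reads TGATGNAA. RefSeq promoter windows on GRCm38.p6, which run from 250 bases before to 50 bases after a gene's start, were matched for 30 of the 34 members. The core, on either strand, was in the window of 9 of the 30 (30.0%), and in 4.51% of the 27025 genes with a window. The stretches that hold it in the 8 detected genes are shown because they are the part of the known ATF4 control that can be read directly in sequence. They run 5′ to 3′ on the strand of the gene, and capitals mark the core or its reverse complement. A match is a description of the letters and not of binding.

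Asns, chr6:7693210-7693272, minus strand: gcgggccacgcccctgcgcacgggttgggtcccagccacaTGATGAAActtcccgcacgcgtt
Chac1, chr2:119351009-119351076, plus strand: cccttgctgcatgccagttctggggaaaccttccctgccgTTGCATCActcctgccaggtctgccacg
Slc7a11, chr3:50443633-50443719, minus strand: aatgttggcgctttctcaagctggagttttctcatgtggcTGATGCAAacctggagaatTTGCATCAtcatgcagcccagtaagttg
Pck2, chr14:55540123-55540190, plus strand: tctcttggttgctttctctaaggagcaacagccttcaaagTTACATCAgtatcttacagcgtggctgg
Pycr1, chr11:120643824-120643891, minus strand: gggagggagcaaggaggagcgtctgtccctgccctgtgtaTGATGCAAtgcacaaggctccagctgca
Nupr1, chr7:126625553-126625620, minus strand: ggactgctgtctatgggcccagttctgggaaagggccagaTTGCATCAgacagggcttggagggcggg
Slc1a4, chr11:20332710-20332757, minus strand: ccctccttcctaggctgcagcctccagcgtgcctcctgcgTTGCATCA
Trib3, chr2:152344039-152344086, minus strand: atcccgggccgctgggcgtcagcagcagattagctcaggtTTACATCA

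Positions are counted from the RefSeq start, which can differ from the end of the gene in the deposited table. The core began at -23 in Asns and at -193 in Chac1. Among these, only Slc7a11 had a pair of cores, at -66 and -47, which face each other on opposite strands. In Pck2 and Pycr1 the core began at -103, in Nupr1 at -110 and in Slc1a4 at -4, while in Trib3 it lay at 15, past the RefSeq start but before the start of the deposited gene. The ninth gene, Vldlr, had it at -200 of its second listed start and had no counts.

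Most of the programme was expressed without the Vdbp label. Levels between genes are compared as the deposited FPKM, which scales by gene length. Phgdh, the first enzyme of serine synthesis, had the highest level, 414.5 FPKM in Vdbp libraries and 347.9 FPKM in empty-vector libraries, followed by Cebpb (369.7 and 300.8 FPKM) and Atf4 itself (236.9 and 217.5 FPKM). The growth factor family member Gdf15 (168.6 and 167.9 FPKM), mitochondrial Shmt2 (158.0 and 137.4 FPKM) and Psat1 (132.8 and 125.6 FPKM) came next. Compared within the same library, this order did not always hold. Cebpb lay above Phgdh in empty-vector replicate 3 (385.6 and 348.5 FPKM) and below it in the others, while Gdf15 lay above Shmt2 in every library. At the low end of the tested genes stood Pycr1 (2.04 and 1.95 FPKM) and Cth (1.90 and 1.59 FPKM). Cbs, which joins homocysteine to serine, had 4, 3 and 4 counts in Vdbp libraries and 3, 2 and 1 in empty-vector libraries. Vldlr, a lipoprotein receptor, had 0 counts in every library. These last genes fell under the filter on low counts, so 32 of 34 members were tested.

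**Figure D1:**
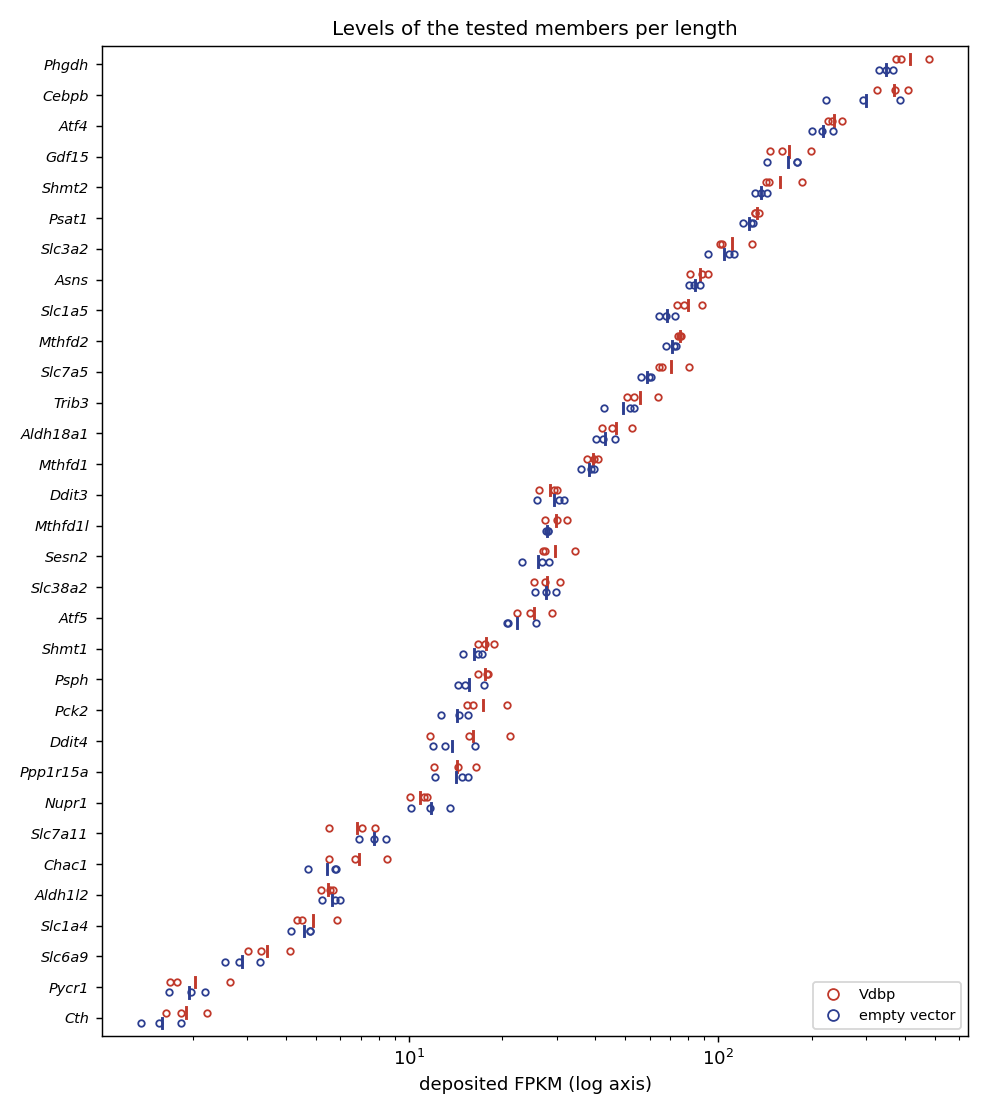
Deposited FPKM (log axis) of the 32 tested members in each library, ordered by mean level, with Vdbp libraries (red) above empty-vector libraries (blue). Circles are libraries and vertical bars are means. Levels span from under 2 FPKM for Cth in empty-vector libraries to over 300 FPKM for Phgdh.

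No member passed the test between the groups. The quasi-likelihood F test of edgeR, with Benjamini-Hochberg adjustment over 12844 tested genes, called 0 genes (0%), and adjusted p over the members ran from 0.781 to 0.989. Before adjustment, p was under 0.05 in 687 genes. The 361 of these with a positive log2 fold change (2.81% of those tested) held 4 members, and the 326 with a negative one (2.54%) held none. Without Vdbp replicate 1, empty-vector replicate 1 or empty-vector replicate 2 no member had an unadjusted p under 0.05, as did 3.63%, 2.92% and 1.97% of genes in that order. Without Vdbp replicate 3 there were 9 members, in a fit where 11.7% of genes had such a p, against 5.35% with all libraries. Leaving out empty-vector replicate 3 gave 22 called genes, none of them a member. Of the other tools, limma-voom called 0 genes (0%, with 701 before adjustment) and DESeq2 called 11 (0.0856%, with 613 before adjustment), again with no member.

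Sizes were small and mostly of 1 sign. The log2 fold change was positive in 28 of 32 members, against 48.7% of all tested genes. Its median was 0.12 over the members and -0.01 over all tested genes, and it ran from -0.18 in Slc7a11 to 0.34 in Chac1. For 27 members the 95% interval lay within 1.5-fold in either direction, as for 70.7% of all tested genes, and for all 32 within 2-fold. The median SE was 0.115 over the members and 0.135 over all tested genes. The 6 libraries parted by group in 5 members, Phgdh, Psat1, Mthfd2, Slc7a5 and Slc1a5, all with the Vdbp libraries above. Such a parting was found in 5.26% of tested genes with Vdbp above and in 5.61% with Vdbp below, where there was no member.

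In each group 1 library stood apart. Vdbp replicate 1 had the highest value of 23 of the 32 members, and of 32.8% of all tested genes. Empty-vector replicate 2 had the lowest value of 17 members, and of 24.5% of all tested genes. The members' median deviation from their mean over libraries was 0.25, 0.02 and -0.02 log2 units in Vdbp replicates 1, 2 and 3, against -0.02, -0.16 and -0.04 in empty-vector replicates 1, 2 and 3. Without Vdbp replicate 1 the median log2 fold change was 0.07, with 22 of 32 members positive. Without both libraries, an alternative chosen with results of these data known, it was 0.03 with 20 of 32 positive.

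**Figure D2:**
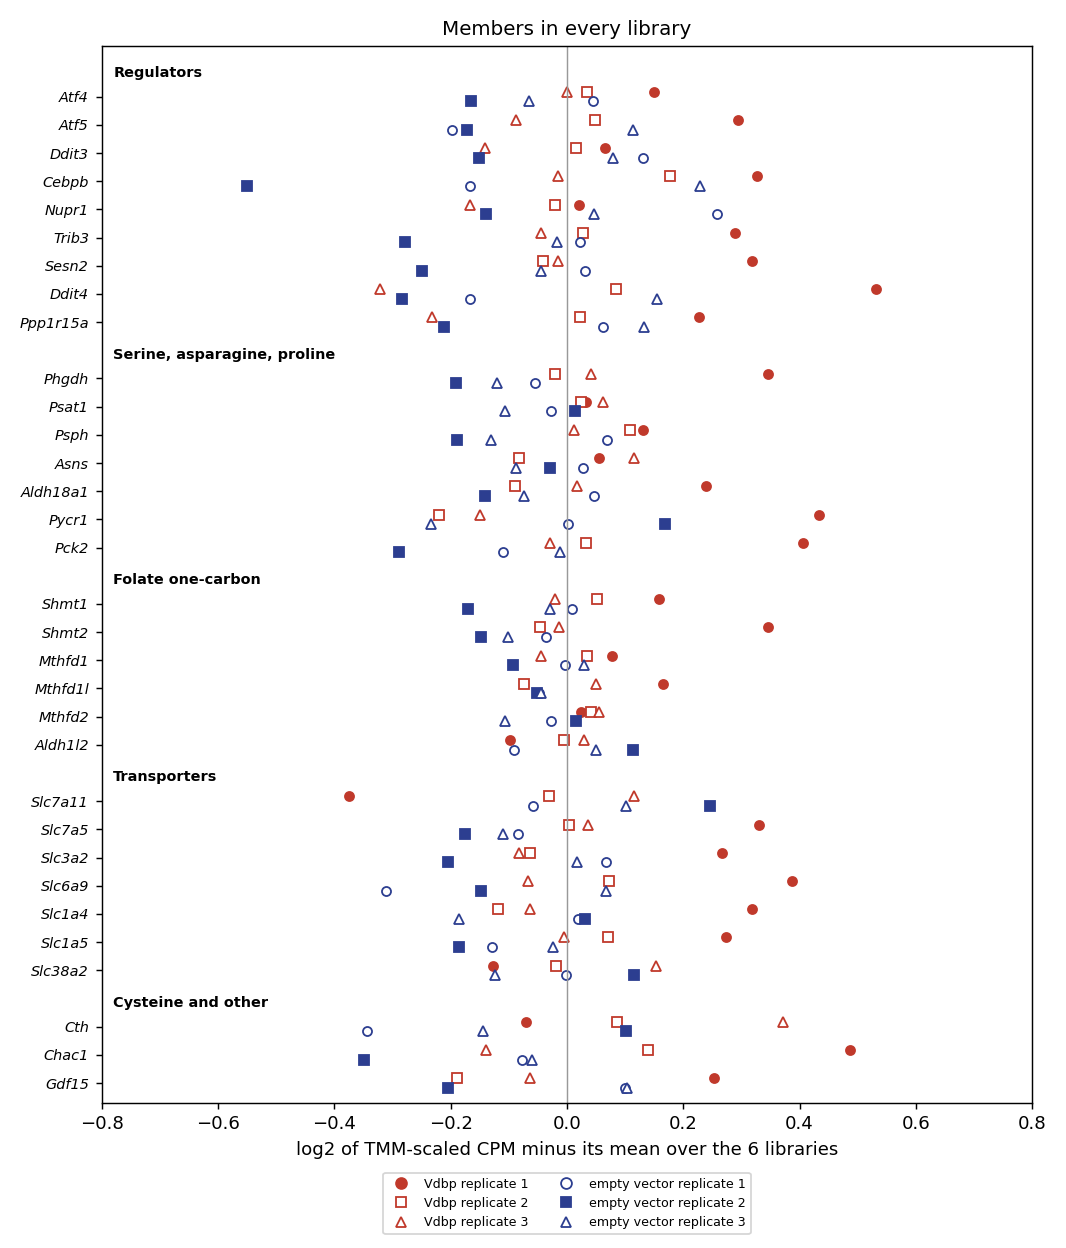
Log2 of TMM-scaled CPM minus its mean over the 6 libraries for the 32 tested members, by role, with Vdbp (red) above empty vector (blue) in each row. Filled symbols are Vdbp replicate 1, the highest library for 23 members, and empty-vector replicate 2, the lowest for 17.

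The same 2 libraries were the extremes when libraries were ordered by how their deviations followed GC content. Across tested genes, which are not independent replicates, Spearman's rho between a library's deviation and GC content was 0.75, -0.02 and -0.41 in Vdbp replicates 1, 2 and 3, and -0.08, -0.64 and 0.07 in empty-vector replicates 1, 2 and 3. Members were richer in GC, with a median of 54.7% against 49.9% over tested genes. Over the 32 members, rho between GC content and log2 fold change was 0.50, as a description of points that share the same 6 libraries. The 15 members with at least 55% GC had a median log2 fold change of 0.20, and the 7 with under 50% had 0.06.

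The edgeR fit was repeated with an offset that takes out, library by library, the part of the values that follows length and GC. The members' rho with GC content was then -0.08. This drop follows from how the offset is fitted, and over all tested genes rho went from 0.53 to 0.03. The offset was fitted without regard to group, so it also takes out any group difference that follows length or GC content. The members' median log2 fold change was 0.06, against 0.00 over all tested genes, and 23 of 32 were positive, against 50.2% of tested genes. This fit called 2 genes of all (0.0156%), neither of them a member, and the smallest adjusted p of a member was 0.458 in Pck2. At an unadjusted p under 0.05, 6 members were positive (4.69% of tested genes), namely Pck2, Slc1a5, Slc38a2, Slc7a5, Cth and Psat1, and 1 was negative (4.54% of tested genes), Gdf15. The libraries parted with Vdbp above in 7 members (6.64% of tested genes), those 6 and Mthfd2, and with Vdbp below in Gdf15 alone (6.83% of tested genes).

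**Figure D3:**
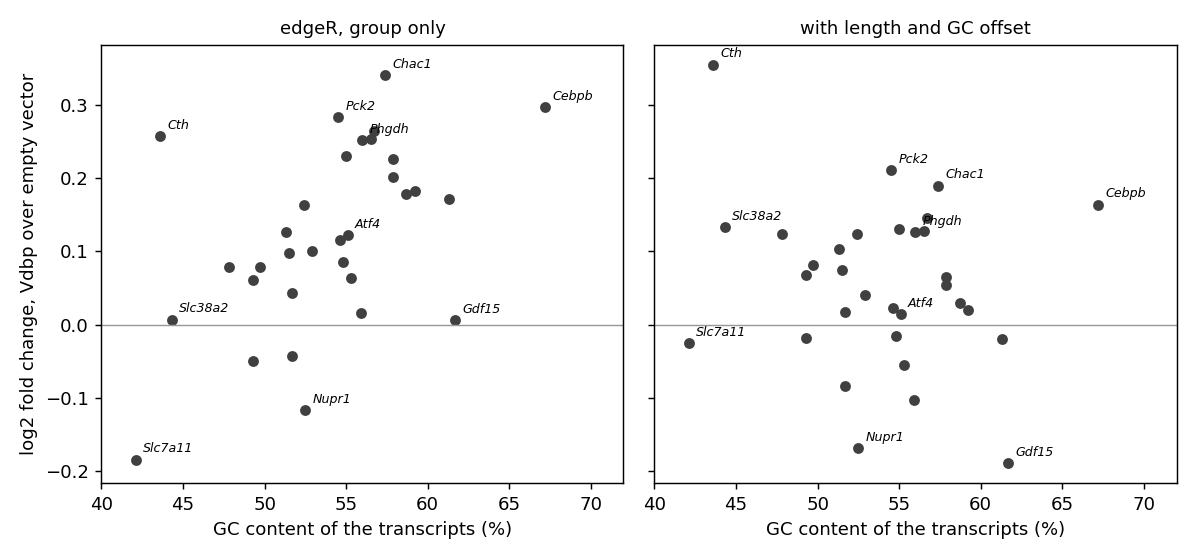
Log2 fold change (Vdbp over empty vector) against transcript GC content (%) for the 32 tested members, each point 1 gene, without (left) and with (right) the length and GC offset. Spearman's rho over the members was 0.50 on the left and -0.08 on the right, where the offset takes out the GC trend by its construction.

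Among the regulators, Atf4 (ENSMUSG00000042406, chromosome 15, 80255184 to 80257541) had 596.3, 550.6 and 537.1 CPM in the Vdbp libraries, against 554.5, 479.2 and 513.4 CPM in the empty-vector libraries. The groups overlapped through empty-vector replicate 1, which lay above Vdbp replicates 2 and 3. Its log2 fold change was 0.12 (SE 0.10, 95% interval -0.09 to 0.33, edgeR adjusted p 0.783), and 0.01 (SE 0.06) with the offset.

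Cebpb, a C/EBP factor that can pair with ATF4, varied widely between libraries. It had 623.6, 561.6 and 491.4 CPM in Vdbp libraries, against 442.6, 339.4 and 582.3 CPM in empty-vector libraries (chromosome 2, 167688915 to 167690418). Empty-vector replicate 3 lay above Vdbp replicates 2 and 3. The log2 fold change was 0.30 (SE 0.17, edgeR adjusted p 0.781), with a coefficient of variation of 11.8% in the Vdbp group and 26.8% in the empty-vector group. It was 0.16 (SE 0.08) with the offset, 0.13 when empty-vector replicate 2 was left out, 0.52 when replicate 3 of that group was left out and 0.04 without both libraries that stood apart.

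The other regulators showed no common direction once the offset was applied. Atf5, a related factor, averaged 50.6 ± 6.91 CPM in Vdbp libraries and 44.9 ± 5.56 CPM in empty-vector libraries (SD, n = 3 each, as in all such pairs here), a log2 fold change of 0.17 that was -0.02 with the offset. Trib3, a pseudokinase that restrains the response, averaged 119 ± 14.9 and 105 ± 11.6 CPM in the same order, and its log2 fold change of 0.18 was 0.02 with the offset. Sesn2, a leucine-binding brake on mTORC1, averaged 103.6 ± 14.9 CPM in Vdbp libraries and 91.5 ± 8.96 CPM in empty-vector libraries. Ddit4, which also restrains mTORC1, also varied widely, with 37.4, 27.4 and 20.7 CPM in Vdbp libraries against 23.1, 21.3 and 28.8 CPM in empty-vector libraries.

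The stress factors closer to cell death and recovery had log2 fold changes of -0.04 in Ddit3, 0.02 in Ppp1r15a and -0.12 in Nupr1, and of -0.08, -0.10 and -0.17 in that order with the offset. Ddit3, which encodes CHOP, averaged 49.3 ± 3.61 CPM in Vdbp libraries and 50.7 ± 5.12 CPM in empty-vector libraries. Ppp1r15a, the GADD34 subunit that guides dephosphorylation of eIF2, averaged 42.3 ± 6.67 and 41.9 ± 5.11 CPM in the same order. Nupr1, a small stress-induced nuclear protein, averaged 27.5 ± 1.84 CPM in Vdbp libraries and 29.8 ± 4.12 CPM in empty-vector libraries. Of the 9 regulators 7 were positive (median 0.17), and 5 with the offset (median 0.01).

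Of the biosynthetic enzymes, all 7 had positive log2 fold changes, with a median of 0.12 (6 of 7 and 0.12 with the offset). Phgdh (chromosome 3, 98313170 to 98339990) had 1202, 932.2 and 973.3 CPM in Vdbp libraries, against 911.1, 828.5 and 869.9 CPM in empty-vector libraries. Every Vdbp library lay above every empty-vector library, with replicate 1 far above the others. The log2 fold change was 0.25 (SE 0.11, interval 0.01 to 0.49, edgeR adjusted p 0.781), and 0.13 (SE 0.06) with the offset, where the groups overlapped.

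Psat1, the transaminase of the second step (chromosome 19, 15904678 to 15947337), had 565.1, 561.5 and 576.2 CPM in Vdbp libraries, against 541.8, 557.4 and 512.9 CPM in empty-vector libraries. The groups parted narrowly and Vdbp replicate 1 did not stand out. Its log2 fold change was 0.08 (SE 0.09, edgeR adjusted p 0.806), and 0.12 (SE 0.06, edgeR adjusted p 0.536) with the offset. Psph, the phosphatase that completes serine synthesis, averaged 76.5 ± 3.32 CPM in Vdbp libraries and 68.3 ± 6.50 CPM in empty-vector libraries.

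Pck2, the mitochondrial phosphoenolpyruvate carboxykinase (chromosome 14, 55540266 to 55551242), had 162.8, 125.7 and 120.4 CPM in Vdbp libraries, against 113.8, 100.5 and 121.8 CPM in empty-vector libraries. Only empty-vector replicate 3 reached into the Vdbp range. The log2 fold change was 0.28 (SE 0.13, edgeR adjusted p 0.781). With the offset it was 0.21 (SE 0.07), with corrected values of 144.4, 128.8 and 123.9 CPM in Vdbp libraries against 115.0, 107.1 and 121.0 CPM in empty-vector libraries, which no longer overlapped.

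Asparagine and proline synthesis had log2 fold changes of 0.06 in Asns, 0.12 in Aldh18a1 and 0.06 in Pycr1. Asns, asparagine synthetase, averaged 240.3 ± 16.7 CPM in Vdbp libraries and 230.4 ± 9.16 CPM in empty-vector libraries. Aldh18a1, which starts proline synthesis from glutamate, averaged 190.5 ± 22.6 and 176 ± 11.7 CPM in the same order. Pycr1, which completes it, averaged 8.08 ± 2.12 CPM in Vdbp libraries and 7.73 ± 1.07 CPM in empty-vector libraries.

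The folate enzymes differed in how far Vdbp replicate 1 stood out. Shmt2, which passes the one-carbon unit of serine to folate in mitochondria (chromosome 10, 127517123 to 127522444), had 582.9, 444.0 and 454.4 CPM in Vdbp libraries, against 447.4, 413.8 and 427.5 CPM in empty-vector libraries. Vdbp replicate 2 lay below empty-vector replicate 1, so the groups overlapped, and the log2 fold change of 0.20 (SE 0.11, edgeR adjusted p 0.781) was 0.05 with the offset. Mthfd2, the mitochondrial dehydrogenase that follows (chromosome 6, 83305691 to 83325908), had 259.9, 263.2 and 265.6 CPM in Vdbp libraries, against 250.8, 258.4 and 237.5 CPM in empty-vector libraries. These parted without overlap and without an outlying Vdbp library, at a log2 fold change of 0.08 (SE 0.09, edgeR adjusted p 0.804).

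Cytosolic Shmt1 averaged 69.4 ± 4.36 CPM in Vdbp libraries and 63.6 ± 4.11 CPM in empty-vector libraries, and the cytosolic trifunctional enzyme Mthfd1 averaged 176 ± 7.47 and 170.3 ± 7.41 CPM in the same order. Mthfd1l, which releases formate from mitochondria, averaged 134 ± 11.02 CPM in Vdbp libraries and 125 ± 0.30 CPM in empty-vector libraries. Aldh1l2, which oxidises the one-carbon unit in mitochondria, averaged 41.3 ± 1.86 CPM in Vdbp libraries and 42.7 ± 3.06 CPM in empty-vector libraries and was the only negative value of the 6. The RNA ratios of mitochondrial to cytosolic enzymes overlapped between the groups and were not tested. FPKM of Shmt2 over Shmt1 averaged 8.86 ± 0.90 in Vdbp libraries and 8.45 ± 0.29 in empty-vector libraries, and Mthfd2 over Mthfd1 averaged 1.91 ± 0.10 and 1.87 ± 0.16 in the same order.

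Transporters held the pair with the smallest unadjusted p of all members without the offset. Slc7a5, the LAT1 exchanger of large neutral amino acids (chromosome 8, 121881150 to 121907694), had 300.5, 239.4 and 245.0 CPM in Vdbp libraries, against 225.4, 211.5 and 221.4 CPM in empty-vector libraries. All Vdbp libraries lay above, with replicate 1 apart. The log2 fold change was 0.25 (SE 0.11, interval 0.03 to 0.48, edgeR p 0.0321, adjusted 0.781), and 0.13 (SE 0.06) with the offset.

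Slc1a5, the ASCT2 glutamine carrier (chromosome 7, 16781340 to 16798274), had 373.5, 324.4 and 307.9 CPM in Vdbp libraries, against 282.6, 271.5 and 303.7 CPM in empty-vector libraries. Here too the groups parted, by a small gap between Vdbp replicate 3 and empty-vector replicate 3. The log2 fold change was 0.23 (SE 0.10, interval 0.01 to 0.45, edgeR p 0.0419, adjusted 0.781). With the offset, values were 323.8, 326.5 and 319.4 CPM in Vdbp libraries against 289.9, 294.4 and 301.5 CPM in empty-vector libraries, a log2 fold change of 0.13 (SE 0.05, edgeR adjusted p 0.506).

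Slc3a2, the 4F2 heavy chain that LAT1 and the cystine carrier both need at the membrane (chromosome 19, 8706882 to 8723369), had 456.8, 363.4 and 358.8 CPM in Vdbp libraries, against 397.8, 329.6 and 384.4 CPM in empty-vector libraries. The groups overlapped, and the log2 fold change was 0.09 (SE 0.12, edgeR adjusted p 0.834). FPKM of Slc7a5 over Slc3a2 was 0.626, 0.627 and 0.650 in Vdbp libraries, against 0.539, 0.611 and 0.548 in empty-vector libraries. Of the 7 ratios computed between members, only this had groups that did not overlap. Among single tested genes 10.9% parted in either direction, and the share among ratios of other genes was not computed.

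Slc7a11, the cystine carrier and the member with the lowest GC content (42.1%), had the most negative value without the offset. It had 77.6, 98.4 and 108.9 CPM in Vdbp libraries, against 96.5, 119 and 107.9 CPM in empty-vector libraries, a log2 fold change of -0.18 (SE 0.13, edgeR adjusted p 0.781) that was -0.03 (SE 0.06) with the offset. Slc38a2, the SNAT2 carrier of small neutral amino acids, differed more with the offset than without it. It averaged 248 ± 24.5 CPM in Vdbp libraries and 247 ± 20.5 CPM in empty-vector libraries (log2 fold change 0.01), and 258 ± 12.4 and 235 ± 8.33 CPM after the offset (0.13, SE 0.06, edgeR adjusted p 0.527). The glycine carrier Slc6a9 averaged 18.03 ± 2.98 CPM in Vdbp libraries and 14.99 ± 1.98 CPM in empty-vector libraries, and Slc1a4, which carries alanine, serine and cysteine, 19.4 ± 3.33 and 18.1 ± 1.48 CPM in the same order.

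**Figure D4:**
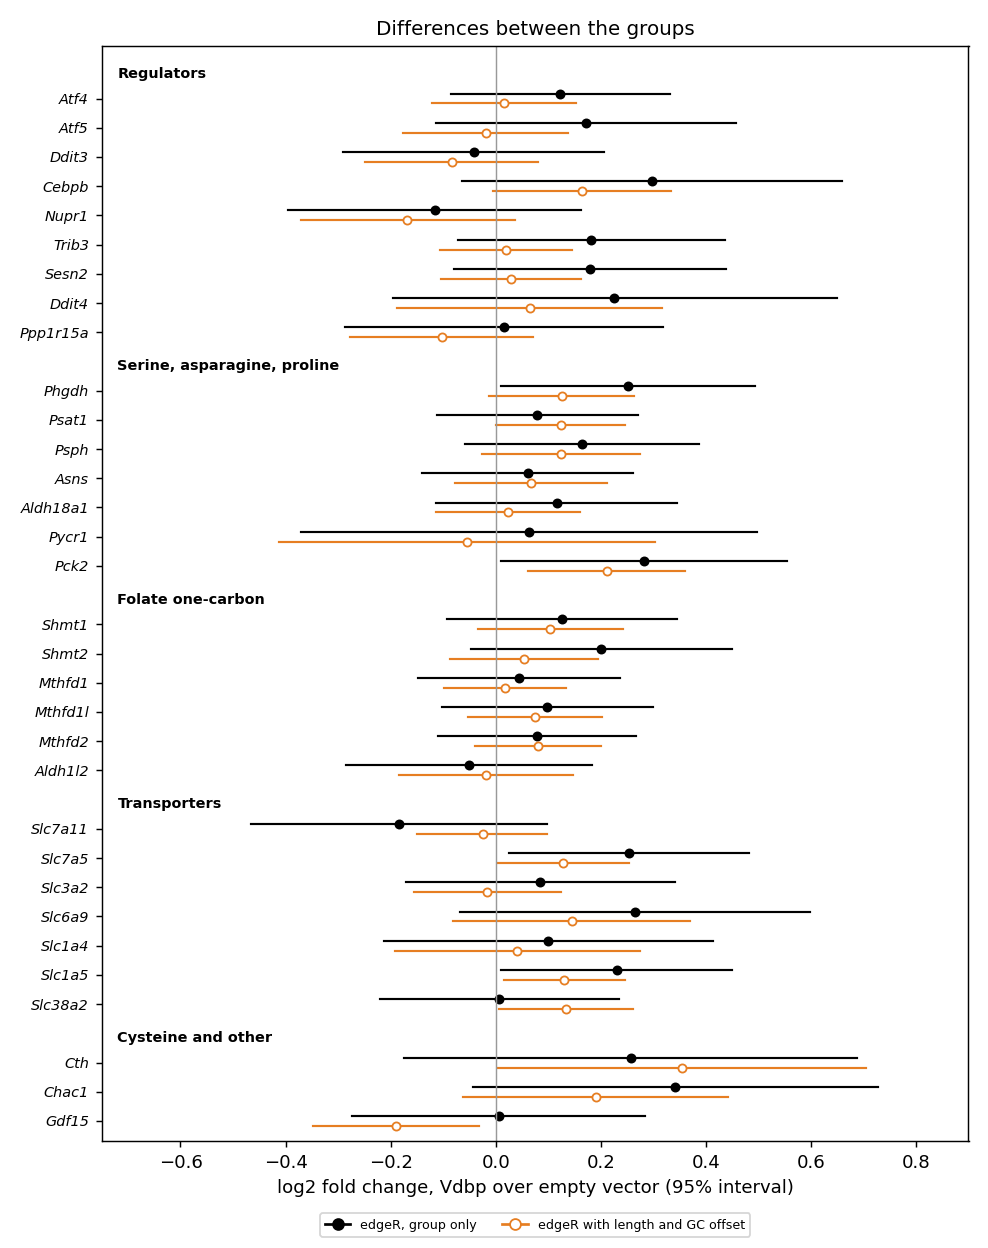
Log2 fold change of Vdbp over empty vector with its 95% interval for the 32 tested members, by role, from edgeR with group only (black, upper) and with the length and GC offset (orange, lower). Without the offset, 4 intervals (Phgdh, Pck2, Slc7a5 and Slc1a5) lie above 0, and none of the 32 members passes after adjustment.

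Of the remaining targets, Chac1, a glutathione-degrading enzyme, had the largest log2 fold change of the members without the offset. The gene (chromosome 2, 119351229 to 119354381) had 225, 184 and 142 counts in Vdbp libraries, against 154, 130 and 162 counts in empty-vector libraries. Vdbp replicate 3 lay below empty-vector replicates 1 and 3. Its value of 0.34 (SE 0.18, edgeR adjusted p 0.781) was 0.19 (SE 0.12) with the offset. Cth, which makes cysteine from cystathionine, averaged 5.34 ± 0.84 CPM in Vdbp libraries and 4.46 ± 0.69 CPM in empty-vector libraries. The log2 fold change of Cth was 0.257 (SE 0.197). With the offset it was 0.355 (SE 0.162, edgeR adjusted p 0.532), the largest of the members in that fit.

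Gdf15, a secreted stress signal (chromosome 8, 70629393 to 70632456), had 371.1, 273.0 and 297.8 CPM in Vdbp libraries, against 333.5, 270.1 and 334.5 CPM in empty-vector libraries. The groups overlapped, with a log2 fold change of 0.01 (SE 0.13). With the offset all 3 Vdbp libraries, at 296.8, 263.7 and 315.7 CPM, lay below the empty-vector libraries, at 355.6, 325.8 and 317.6 CPM, a log2 fold change of -0.19 (SE 0.07, edgeR adjusted p 0.493). Its GC content, 61.7%, was the second highest of the members after Cebpb (67.2%).

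The tested members were also grouped by the promoter element, as a description with no test. The median log2 fold change was 0.08 in the 8 tested members with the core in their window, with 6 positive, and 0.12 in the 20 with a window without it, with 19 positive. With the offset the medians were 0.03 and 0.06 in the same order. Aldh1l2, Cth, Slc1a5 and Slc7a5 had no window and are in neither group (log2 fold changes -0.05, 0.26, 0.23 and 0.25 in that order). Sequence outside the windows was not searched, so a member without a match may hold the core elsewhere.

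Genes around the programme, in 6 lists, gave 104 tested genes of 115, and none passed. Of these 56 were positive (53.8%, against 48.7% of all tested genes), with a median log2 fold change of 0.03. An unadjusted edgeR p under 0.05 was found in 2, both positive, and in 5.35% of all tested genes. With the offset 56 were positive (median 0.01), against 50.2% of all tested genes. Such a p was then found in 7 positive and 1 negative genes, against 4.69% and 4.54% of all tested genes. Of 15 genes of eIF2 control 5 were positive (median -0.05), and 8 with a median of 0.01 with the offset. Eif2b5, a subunit of the eIF2 exchange factor, averaged 113 ± 6.58 CPM in Vdbp libraries and 98.1 ± 3.74 CPM in empty-vector libraries (edgeR adjusted p 0.781). The most abundant, Eif2s2, stood at 50.7 FPKM in Vdbp libraries and 53.01 FPKM in empty-vector libraries.

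Of 21 further folate genes 11 were positive (median 0.03, and 14 with a median of 0.05 with the offset). Fpgs, which adds the glutamate tail that keeps folates in the cell, had the smallest p, at 34.4 ± 6.15 CPM in Vdbp libraries and 26.9 ± 3.25 CPM in empty-vector libraries (edgeR adjusted p 0.781), and the purine enzyme Paics was the most abundant (69.5 and 72.8 FPKM in that order). Of 21 tested amino acid enzymes 14 were positive (median 0.07, and 17 with a median of 0.13 with the offset). Pycrl had the smallest p (54.5 ± 8.71 CPM in Vdbp libraries and 44.6 ± 4.81 CPM in empty-vector libraries), and the aspartate transaminase Got2 was the most abundant (124 and 119 FPKM).

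Other transporters had 9 of 15 tested genes positive (median 0.07, and 6 with a median of -0.01 with the offset), with Slc38a9, a lysosomal arginine sensor, at 17.8 ± 1.78 CPM in Vdbp libraries and 21.3 ± 1.92 CPM in empty-vector libraries, and Slc15a3 the most abundant (197 and 187 FPKM). Genes of amino acid sensing around mTORC1 had 11 of 17 positive (median 0.04), and 7 with a median of -0.01 with the offset. Among them Rragc, a Rag GTPase, averaged 56.7 ± 4.39 CPM in Vdbp libraries and 65.02 ± 5.15 CPM in empty-vector libraries, and Lamtor5 was the most abundant (149 and 143 FPKM). The list of other ATF and C/EBP factors also held Creb1, Cebpz, Jdp2, Nfe2l1, Nfe2l2 and Xbp1. Of its 15 tested genes 6 were positive (median -0.09), and 4 with a median of -0.02 with the offset. Atf6 averaged 156.0 ± 9.90 CPM in Vdbp libraries and 174.5 ± 13.9 CPM in empty-vector libraries, and Atf3 was the most abundant (72.1 and 76.7 FPKM).

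In 6 members, Atf5, Ddit3, Cebpb, Psph, Shmt1 and Aldh1l2, the deposited positions overlap a gene on the other strand with over 60 counts in total. These neighbours held from 10469 counts (D10Wsu102e, beside Aldh1l2 with 4127) to 46597 counts (Cct6a, beside Psph with 7100). Only Cebpb, with 49776 counts, had more than its neighbour Tmem189, with 45934. The use of strand in counting is not given in the sources used here, so reads of such pairs may not be fully told apart.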

How the data were processed

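RNA sequencing libraries of 6 samples were compared, 3 per group. The deposited counts are unnormalised whole numbers per Ensembl gene. The authors' FPKM values were those counts divided by gene length and by a constant per library (largest relative gap 1.3e-13). HISAT2 and StringTie appear in the submitters' processing notes, without versions. For counting, a tool or build was not given in the sources used here. GENCODE M21 (GRCm38) held 99.8% of the gene identifiers, 98.3% of these at the same position, and supplied transcript GC content.

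Genes were filtered with filterByExpr (minimum count 10, total 15, proportion 0.7), scaled by TMM and tested across all genes with edgeR 4.0.16 in R 4.3.3, two-sided. Adjusted p-values use the Benjamini-Hochberg method with a threshold of 0.05, and the procedure was tested on simulated data. The simulated libraries held no GC trend, and their smallest change was 1.5-fold, larger than that of any member. They therefore do not show how differences of the members' size would be found. CPM are the deposited counts over the TMM-adjusted library size. Alternatives used DESeq2 1.42.0, limma 3.58.1 (voom, and log2 of FPKM plus 1 or 0.1) and an offset on length and GC fitted with mgcv 1.9.3.

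All 34 members are accounted for. Values per library are given for Atf4, the most abundant member of each role by FPKM, the 6 with the smallest p and those without overlap, and in each pathway list the most abundant gene and that with the smallest p are named; Ddit4 and Slc7a11 were added after their values were seen. Members and lists were chosen with earlier results of these data known.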

Additional observations from a re-analysis of the deposited data

How the results depend on the processing

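Over 19 alternatives, 18 of them planned, no member passed an adjusted threshold. Counts over all genes moved from 0 to 89 without a filter on low counts, 11 with DESeq2, 4 with log2(FPKM + 1), 2 with the length and GC offset, 2 without both libraries at the ends of the GC trend, and 0 to 22 when 1 library was left out, the 22 without empty-vector replicate 3. The members' median log2 fold change kept its sign, from 0.03 without both end libraries to 0.17 without Vdbp replicate 2. Members without overlap, 5 beside 10.9% of all tested genes, numbered 8 with the offset, alone or with the block (13.5%), 11 without both end libraries (32.5%) and 6 (without Vdbp replicate 1, 18.2%) to 12 (without Vdbp replicate 3, 28.1%) with 1 library left out, where fewer libraries have to part. The labels state no pairing by replicate number. Correlations of deviations from the group means were 0.14, 0.03 and -0.27 for numbers 1, 2 and 3, and -0.34 to 0.35 for unlike numbers. These correlations cannot show whether samples were handled in pairs. With a replicate block the members' median was 0.12 with 0 genes called.

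Of 608 alternative values of single members, 36 changed sign, in 15 members, and none passed; the cause was not tested. With the offset, then with offset and block, log2 fold changes were -0.019 and -0.017 in Atf5, -0.103 and -0.104 in Ppp1r15a, -0.055 and -0.058 in Pycr1, -0.016 and -0.015 in Slc3a2, and -0.189 and -0.191 in Gdf15, which was -0.003 with total count scaling. Without both end libraries they were -0.014 in Trib3, -0.024 in Sesn2, -0.109 in Ddit4, -0.199 in Ppp1r15a, -0.026 in Aldh18a1, -0.076 in Pycr1, -0.021 in Mthfd1, 0.028 in Aldh1l2, 0.017 in Slc7a11, -0.118 in Slc3a2, -0.014 in Slc1a4 and -0.23 in Gdf15, and the regulators' median was -0.024. Leaving out 1 library gave ranges of -0.122 to 0.016 in Ddit3, -0.014 to 0.411 in Ddit4, -0.098 to 0.127 in Ppp1r15a, -0.168 to 0.185 in Pycr1, -0.035 to 0.147 in Slc3a2, -0.046 to 0.183 in Slc1a4, -0.071 to 0.074 in Slc38a2 and -0.13 to 0.098 in Gdf15. For members under 10 CPM, such as Cth and Pycr1, depth limits the precision.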
